A study of Mus musculus with 6 samples.

Results

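Genes of mouse chromosome 2 were compared in their order along the chromosome between 3 control tumours and 3 tumours grown from cells edited at Uhrf1, to separate a shift shared by a region from changes of single genes. A count row was used where it lies on chromosome 2 alone, covers at least 50 bp of exon of a single GENCODE M21 gene (build GRCm38) and holds at least 60 counts over the 6 tumours. Genes of the Slc and Zfp families and Hnf4a, E2f1, Dpp4, Spi1, Zeb2 and Col5a1 were left out, 15 genes in all, among them Slco4a1, whose symbol also begins with Slc. This left 403 rows of 318 genes, out of 4389 genes that meet the same rule on all chromosomes, and 303 of the 318 are protein coding. Members were chosen by their position and by a measured value, the sum of counts over both groups and not the difference between groups, but the chromosome was picked with earlier results of these tumours known, so its place among chromosomes is a description. Rows of Gm14085 and Rtel1, at 60 and 61 counts, lay just inside the minimum, and rows of Tanc1 and Ralgps1, at 58 and 57 counts, just outside.

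LG1233-OVA cells, the source of all 6 tumours, are a murine lung cancer line with ovalbumin as its model antigen. Stable lines made by CRISPR/Cas9 with a non-targeting guide (sgNT, labelled wild type) or a guide against Uhrf1 (sgUhrf1, labelled knockout) were grown as subcutaneous tumours in female C57BL/6 mice. Each injection held 1000000 cells, and 3 tumours of each group were taken on day 27. The sources used here do not give the age of the mice, the guide sequences, or whether each line is 1 clone. Poly(A) RNA of whole tumours was sequenced, so RNA of cancer cells and host cells was measured together, and a smaller number of cells of a type cannot be told apart from less RNA per cell.

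UHRF1 binds DNA methylated on 1 strand after replication and brings the maintenance methyltransferase DNMT1 to it, so that methylation of CG dinucleotides is copied to the new strand. Promoters rich in CG are mostly unmethylated and active in many tissues, while many tissue-restricted genes, olfactory receptors among them, have promoters poor in CG. Chromosome 2 carries the Hoxd cluster, a large group of olfactory receptor genes, the BPI-fold gene cluster of airway and salivary secretions and, near its distal end, the imprinted Gnas domain. Genes along a chromosome can change together, as when a stretch is gained, lost or silenced, or each by itself.

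The 250 bases upstream of the start site are printed for the 3 largest rises and the 3 largest falls among the named genes, because CG content was one property on which genes that rose and fell could be set side by side. Sequences are from RefSeq (GRCm38.p6), 5′ to 3′ on the gene's strand, with every CG dinucleotide in capitals. The windows of Olfr1189 (an olfactory receptor, chr2:88591556-88591805, plus strand), Bpifb1 (a secreted BPI-fold protein of airway epithelium, chr2:154190568-154190817, plus strand) and Mal (a membrane raft protein of polarised epithelia and myelin, chr2:127656696-127656945, minus strand) are those of the genes that rose. Those of Ckap5 (a microtubule polymerase of the mitotic spindle, chr2:91526512-91526761, plus strand), Nacc2 (a BTB-domain repressor, chr2:26122812-26123061, minus strand) and Mvb12b (an ESCRT-I subunit, chr2:33887947-33888196, minus strand) are those of the genes that fell. For Olfr1189 the window precedes the RefSeq start, while the counted exon bases (midpoint 88586755) lie upstream of it, in the first exon of a longer M21 transcript, so it is not the promoter of the transcript whose reads were counted.
Olfr1189: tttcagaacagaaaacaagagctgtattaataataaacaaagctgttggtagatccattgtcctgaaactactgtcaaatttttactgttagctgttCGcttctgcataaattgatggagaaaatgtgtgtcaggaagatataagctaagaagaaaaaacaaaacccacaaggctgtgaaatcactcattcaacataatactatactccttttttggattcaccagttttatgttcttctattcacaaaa
Bpifb1: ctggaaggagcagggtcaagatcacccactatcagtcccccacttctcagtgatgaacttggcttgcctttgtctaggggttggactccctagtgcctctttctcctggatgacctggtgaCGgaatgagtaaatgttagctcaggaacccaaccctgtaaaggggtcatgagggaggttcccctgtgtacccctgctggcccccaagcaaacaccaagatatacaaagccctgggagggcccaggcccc
Mal: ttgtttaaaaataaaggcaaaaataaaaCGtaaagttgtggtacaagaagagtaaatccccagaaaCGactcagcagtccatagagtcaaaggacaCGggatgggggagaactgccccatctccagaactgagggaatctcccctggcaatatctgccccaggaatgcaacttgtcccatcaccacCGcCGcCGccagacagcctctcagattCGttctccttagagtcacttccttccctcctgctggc
Ckap5: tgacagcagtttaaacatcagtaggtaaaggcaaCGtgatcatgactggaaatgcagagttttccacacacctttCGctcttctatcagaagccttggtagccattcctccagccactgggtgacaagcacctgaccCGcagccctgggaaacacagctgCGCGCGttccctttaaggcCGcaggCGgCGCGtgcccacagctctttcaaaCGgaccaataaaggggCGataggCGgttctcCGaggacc
Nacc2: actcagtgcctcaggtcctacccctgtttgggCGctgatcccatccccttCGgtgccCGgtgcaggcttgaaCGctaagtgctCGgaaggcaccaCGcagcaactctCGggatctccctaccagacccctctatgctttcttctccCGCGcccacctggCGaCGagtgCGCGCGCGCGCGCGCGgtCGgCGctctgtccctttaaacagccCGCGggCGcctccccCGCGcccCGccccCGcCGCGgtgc
Mvb12b: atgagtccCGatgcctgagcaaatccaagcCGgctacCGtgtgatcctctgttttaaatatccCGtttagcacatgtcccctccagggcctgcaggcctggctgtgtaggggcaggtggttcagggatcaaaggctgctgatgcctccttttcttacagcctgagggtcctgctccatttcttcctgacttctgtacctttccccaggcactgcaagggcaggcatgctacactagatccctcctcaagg

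The printed windows of Olfr1189 and Bpifb1 hold 1 CG each and that of Mal holds 7, against 14 for Ckap5, 30 for Nacc2 and 4 for Mvb12b. CG was counted as the letters CG, which read the same on both strands, and in the whole RefSeq window of 300 bases, 250 before and 50 after the start. Of the 41 members that rose, 35 were matched to a promoter by symbol, with a median of 8 CG, and 28.6% of these held fewer than 5. Of the 95 that fell, 86 were matched, with a median of 22 CG and 6.98% under 5. The 150 matched genes without a call had a median of 22.5 CG, and 15 of them held fewer than 5. In these windows, genes that fell were about as rich in CG as genes without a call, and genes that rose were poorer. Where a gene had several starts, the one nearest the 5′ end of the M21 gene was taken. It need not be the start of the transcript whose reads were counted. Called genes of other chromosomes were not compared, so this is not read as a trait of chromosome 2. Over all 32851 promoters of the table, of which 38.0% held fewer than 5, the median was 7 CG. These are descriptions of the letters in a window, not of methylation, which was not measured here.

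Each tumour had 5462555 to 6375069 counts in all. A count of 0 allows up to 3 counts, which equals 0.445 to 0.660 CPM (counts per 1000000, scaled by the trimmed mean of M values, TMM), for counting error only. The row over Uhrf1 exons on chromosome 17 stood at 122 ± 21 CPM (SD, n = 3) in sgNT and 94.7 ± 24.5 CPM (SD, n = 3) in sgUhrf1 tumours, with overlapping groups (edgeR adjusted p = 0.227), so this row neither checks nor contradicts the labels. Most rows carry other genes' names in the files, and each was renamed by the exons it covers, as described with the processing. Summed levels of cell type markers differed between tumours. The 5 epithelial markers with a row summed to 157 to 439 CPM in sgNT and 1690 to 2880 CPM in sgUhrf1 tumours, and the 7 leukocyte markers to 29.6 to 57.4 CPM against 212 to 389 CPM. The 11 muscle markers reached 669 CPM in sgNT replicate 2 and 582 CPM in sgUhrf1 replicate 1 and lay between 77.8 and 118 CPM in the other tumours. Fibroblast markers (8 rows, Fbn1 at 0) spanned 6000 to 9900 CPM in sgNT and 5940 to 16300 CPM in sgUhrf1 tumours, and endothelial markers (6 rows) 67.1 to 135 CPM and 76.7 to 130 CPM. The part of these cell types in the results below was not tested beyond leaving out both muscle-rich tumours.

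Chromosome 2 genes were more often lower than higher in sgUhrf1 tumours. Of 313 genes that passed the low count filter, 41 rose (13.1%) and 95 fell (30.4%) in edgeR's quasi-likelihood test at an adjusted p of 0.05, adjusted over all 10503 rows tested, of which 39.9% were called in either direction. Under the same rule on the other chromosomes, 852 of 3966 genes rose (21.5%) and 846 fell (21.3%), so the share with any call was close, 43.5% on chromosome 2 and 42.8% elsewhere, and the balance between directions was not. The median log2 fold change of chromosome 2 genes was -0.33 (interquartile range -1.06 to 0.40), against 0.02 for genes of other chromosomes and -0.01 for all 4279 genes of the rule. Chromosome 2 had the lowest median of the 19 autosomes, next to -0.28 on chromosome 10, while chromosome X was lower at -0.70 and chromosome 7 highest at 0.35. Without sgNT replicate 2, 26 of 316 chromosome 2 genes rose (8.23%) and 61 fell (19.3%), against 14% and 13% on other chromosomes. Without both muscle-rich tumours, 19 of 313 rose (6.07%) and 41 fell (13.1%), against 11.6% and 8.19%. The shares called were thus smaller on the other chromosomes too, and falls remained the more frequent calls on chromosome 2.

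The tumours of the 2 groups did not overlap in this shift. As a measure per tumour, the deviation of each gene's log2 CPM from its mean over the 6 tumours was taken, and the median over chromosome 2 genes was set against the tumour's median over all genes of the rule. It was 0.14, 0.19 and 0.21 in sgNT replicates 1 to 3 and -0.16, -0.19 and -0.16 in sgUhrf1 replicates 1 to 3. Every sgUhrf1 tumour lay below every sgNT tumour, including sgNT replicate 2 and sgUhrf1 replicate 1, which hold the most muscle RNA. Because deviations are from a mean over the same 6 tumours, a difference between groups by itself gives them opposite signs. For 132 chromosome 2 genes (42.2%) every sgUhrf1 tumour was below every sgNT tumour, against 29.2% on other chromosomes, and for 51 (16.3%) every one was above, against 27.5%. The log2 fold change was below 0 for 63.9% of chromosome 2 genes and for 49.1% elsewhere. Through the low count filter, 7 of the 313 genes passed by sgNT tumours alone and 8 by sgUhrf1 tumours alone, so these 15 had to differ. Among the other 298, 11.4% rose and 30.5% fell, with a median of -0.34. With such genes set aside on the other chromosomes too, 19.0% of 3758 rose and 21.2% fell. The other 5 members did not reach the filter (Spag6, Gm13878, Duox2, Gm14085 and Mylk2).

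**Figure D1:**
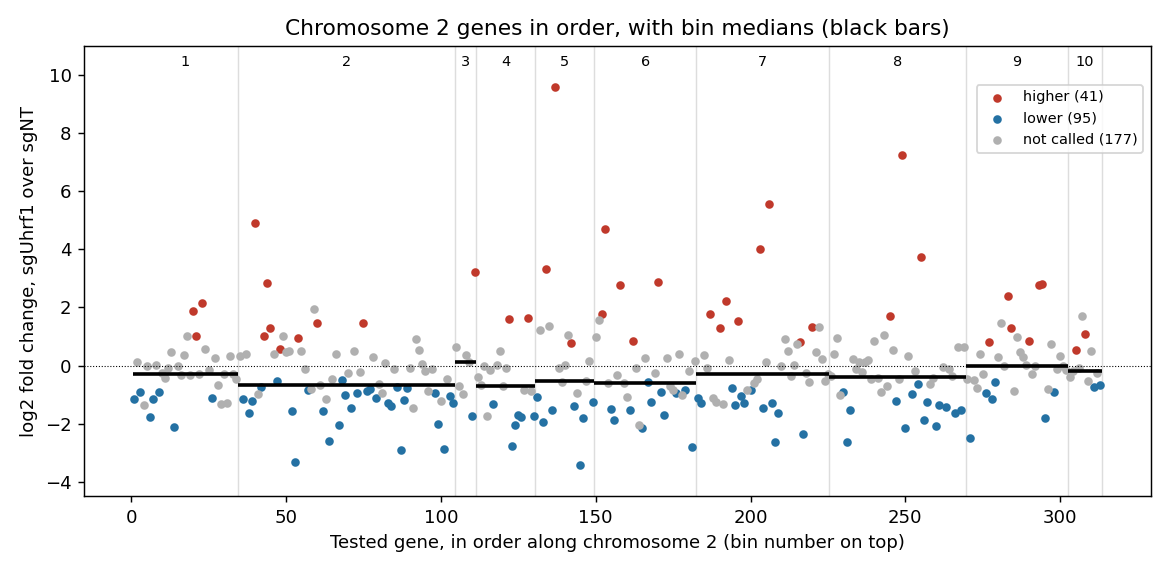
Each point is a tested gene in its order along chromosome 2, with log2 fold change of sgUhrf1 over sgNT tumours on the y axis; colours mark genes higher (41), lower (95) and not called, and black bars the median of each 20 Mb bin. Points of both directions occur in every bin, and the bars of every bin but bin 3 lie below 0, those of bins 9 and 10 at -0.02 and -0.20.

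The share of all counts that fall on chromosome 2, not scaled by TMM, was also lower. It was 6.06%, 6.53% and 6.73% in sgNT replicates 1 to 3 and 4.70%, 4.49% and 4.89% in sgUhrf1 replicates 1 to 3, so the unscaled groups did not overlap. TMM factors were 1.094, 1.065 and 1.019 in sgNT and 1.041, 0.9946 and 0.8134 in sgUhrf1 replicates 1 to 3. Divided by these, the share of sgUhrf1 replicate 3 would pass that of sgNT replicate 1, with or without Vim. Shares of other chromosomes were not taken. Part of that was 1 gene, Vim, the intermediate filament of mesenchymal cells. Leaving out Vim, a choice made after its values were seen, the mean share was 5.34% ± 0.160 in sgNT and 4.25% ± 0.078 in sgUhrf1 tumours (SD, n = 3), and the unscaled groups still did not overlap. A row over no exon, described below, took a further part. Without it and Vim the shares were 5.02% ± 0.122 and 4.19% ± 0.0955 (SD, n = 3). Rows shared by several genes, which hold 52.2% of the chromosome's counts and are outside the rule, had 45 higher and 59 lower of 261 tested and a median of -0.11. Shared rows of other chromosomes were not counted by themselves.

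In 20 Mb bins counted from the start of the chromosome, the shift was spread over most of its length. Bin 1 (0 to 20 Mb) had 34 genes, 3 higher and 7 lower, with a median log2 fold change of -0.29. Bin 2 (20 to 40 Mb) held the most genes, 70, of which 8 rose and 29 fell, with a median of -0.66. Bin 3 (40 to 60 Mb) held only 7 genes, with a median of 0.12. Fmnl2 fell and Gm13546 rose, the latter having passed the low count filter through sgUhrf1 tumours alone. Bins 4 to 6 had medians of -0.70 (19 genes, 2 higher and 6 lower), -0.54 (19 genes, 3 and 7) and -0.59 (33 genes, 5 and 11). Bin 7 (120 to 140 Mb) stood at -0.30 (43 genes, 8 higher and 12 lower) and bin 8 (140 to 160 Mb) at -0.41 (44 genes, 3 and 14). In the distal bins the balance was even, with 6 of 33 genes higher and 6 lower and a median of -0.02 in bin 9 (160 to 180 Mb), and 2 of 11 higher and 2 lower with -0.20 in bin 10, which ends with the chromosome.

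By tumour, 7 of the 9 bins with at least 10 genes (77.8%) had every sgUhrf1 tumour below every sgNT tumour. Of the 117 such bins of the other chromosomes, 32 (27.4%) were lower without overlap and 27 (23.1%) higher. On chromosomes X and 10, next to chromosome 2 in rank of median, 6 of 6 and 4 of 7 bins were lower without overlap. On chromosomes 13, 3, 16 and 5, which follow in rank, it was 3 of 6, 1 of 6, 1 of 4 and 4 of 8. In bin 2 the median deviations were 0.14, 0.30 and 0.34 in sgNT tumours and -0.23, -0.17 and -0.29 in sgUhrf1 tumours, and in bin 6 they were 0.24, 0.17 and 0.19 against -0.24, -0.19 and -0.21. Bin 1 was narrowest, 0.25, 0.07 and 0.07 against -0.17, -0.22 and 0.03. In bin 9 the groups overlapped, at -0.07, -0.04 and 0.05 against 0.09, -0.14 and 0.08, and so they did in bin 10 and, with few genes, in bin 3. Grouped after these values were seen, bins 1 to 8 had 33 of 269 genes higher and 87 lower with a median of -0.44, and bins 9 and 10 had 8 and 8 of 44 with a median of -0.05. No test was made of the difference between these stretches.

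**Figure D2:**
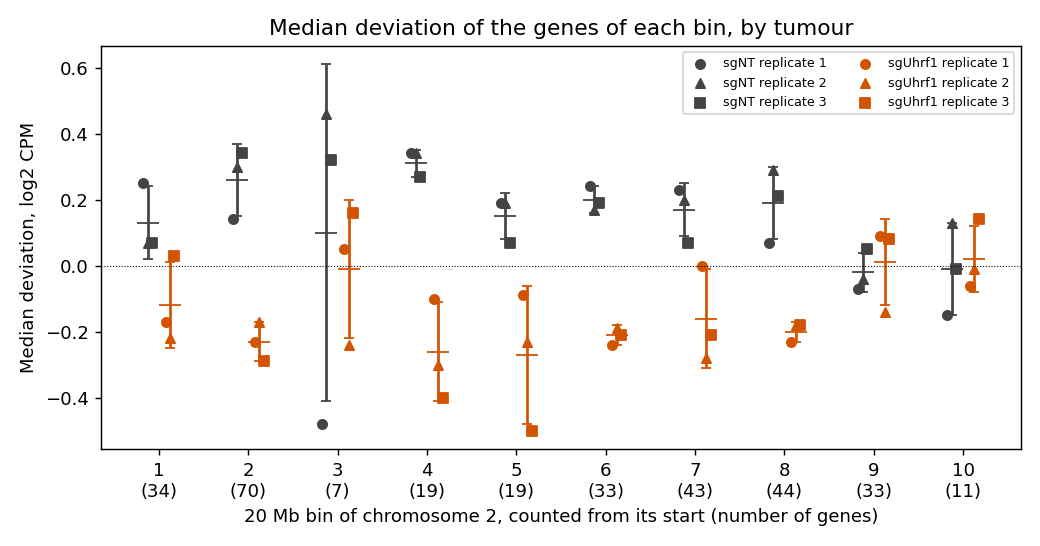
Each symbol is 1 tumour and gives the median deviation of log2 CPM of the genes in a 20 Mb bin of chromosome 2, relative to the tumour's median over all genes of the rule; the number of genes is under each bin number. In bins 1, 2 and 4 to 8 the 3 sgNT tumours lie above the 3 sgUhrf1 tumours, and in bins 3, 9 and 10 they overlap.

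Bins of the other chromosomes gave medians from -1.33 to 0.75, so no bin of chromosome 2 lay outside their range. Of the 117 other bins 59 (50.4%) had a median below 0, and of the 10 bins of chromosome 2, 9 did, bin 3 being the exception. This was not particular to chromosome 2: all 7 such bins of chromosome 10 and all 6 of chromosome X were below 0. Only 2.35% of the variance of log2 fold changes of chromosome 2 genes lay between its bins, with an SD of 1.48 within bins. On the other chromosomes, 5.10% of the variance lay between bins of a chromosome, with an SD of 1.65 within.

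**Figure D3:**
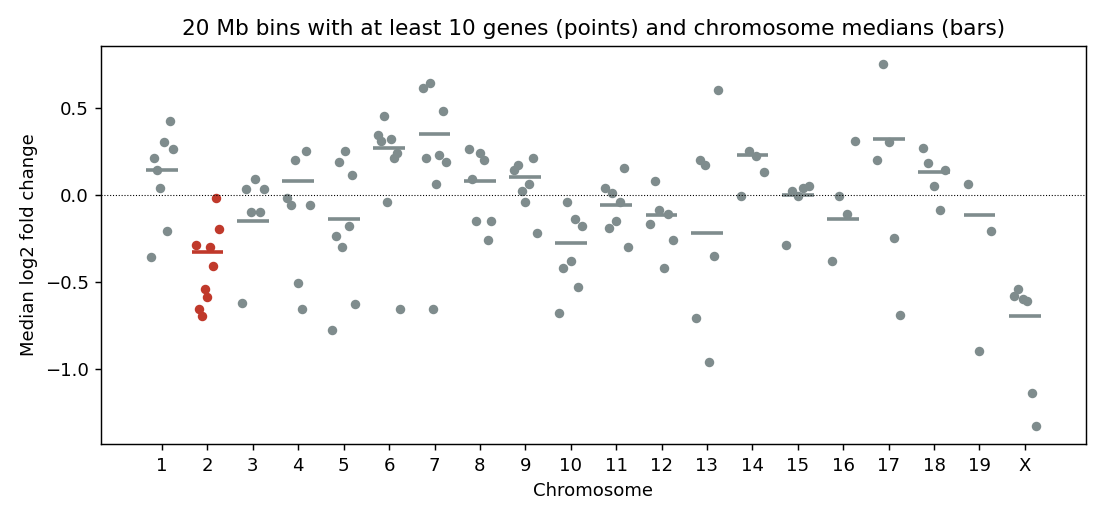
Points are the median log2 fold changes of 20 Mb bins with at least 10 genes, and bars the median of each chromosome's genes. Chromosome 2 bins span -0.70 to -0.02 around a chromosome median of -0.33, while bins of other chromosomes run from -1.33 to 0.75.

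Neighbouring genes were not alike. Across the 312 pairs of adjacent tested genes on chromosome 2, a median of 184 kb apart, the log2 fold changes had a Pearson r of 0.00334 and a Spearman rho of 0.0438, and 53.2% of pairs had the same sign. The 3947 pairs of other chromosomes gave 0.148 and 0.131, with 55.3% of the same sign. Genes are not independent replicates and neighbours can share reads, so these only describe the order. At 23 places, adjacent genes were called in opposite directions. Such pairs were not counted on other chromosomes, so their number is not read as a trait of chromosome 2. In bin 5, the palmitoyltransferase gene Zdhhc5 fell by 1.95 on the log2 scale while Serping1, 56.5 kb away, rose by 3.31. In bin 8, the coactivator gene Ncoa6 fell by 0.62 beside a rise of 3.75 for Ggt7, 79.6 kb away, and in bin 7 Vps16 rose by 0.81 beside a fall of 2.37 for Ptpra, 75.6 kb away. Of these genes, Ggt7 passed the low count filter through sgUhrf1 tumours alone, so that it had to differ.

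Runs of at least 4 neighbouring tested genes with the same call occurred at 2 places, both of lower genes. Runs on other chromosomes were not counted, and lower calls were the more frequent ones here, so the number of runs is not read as a result. In bin 2, Zbtb43 (-0.74), Mvb12b (-2.90), Gapvd1 (-1.20) and Rabepk (-0.76) lay in 1.33 Mb (chr2:33452916-34785304), and all fell. In bin 4, Itga6 (-2.78), the kinase Pdk1 (-2.04), Wipf1 (-1.72) and Chn1os3 (-1.77) lay in 1.81 Mb (chr2:71787256-73599143), and all fell. Chn1os3 is an antisense RNA, and reads were counted without strand, so its reads cannot be told apart from those of genes on the other strand. It passed the low count filter through sgNT tumours alone, so that it had to differ, and the run reaches 4 genes only with it. Mvb12b held 87, 108 and 100 counts in sgNT replicates 1 to 3 and 9, 6 and 18 in sgUhrf1 replicates 1 to 3, with no overlap.

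Single genes set much of the summed expression of some bins. The gene left out was picked as the one that moves the sum most, and 1 gene can move a median little by construction. In bin 1, the summed CPM of 35 genes fell by 0.96 on the log2 scale between group means, and Vim alone made up 87.5% of the sgNT sum. Vim held 50020, 64419 and 78299 counts in sgNT replicates 1 to 3 and 25036, 19506 and 31010 in sgUhrf1 replicates 1 to 3. Every sgUhrf1 tumour was below every sgNT tumour. The log2 fold change was -1.13 ± 0.35 (SE, edgeR adjusted p = 0.0289), but the call was lost without sgNT replicate 2 (-1.22, adjusted p = 0.0590), sgNT replicate 3 (-0.88, adjusted p = 0.111), sgUhrf1 replicate 1 (-1.09, adjusted p = 0.0741), sgUhrf1 replicate 2 (-0.90, adjusted p = 0.0652) or both muscle-rich tumours (-1.14, adjusted p = 0.153), each in edgeR. Without Vim the sum of bin 1 fell by 0.16. In bin 5 the direction turned on 1 gene: the sum rose by 0.17 with Serping1, the C1 inhibitor of complement, and fell by 0.47 without it.

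Serping1 (chr2:84765387-84775444, minus strand) held 279, 297 and 368 counts in sgNT replicates 1 to 3 and 1761, 1826 and 4203 in sgUhrf1 replicates 1 to 3, all of them higher. Its log2 fold change was 3.31 ± 0.46 (SE, edgeR adjusted p = 0.000883). In bin 4, the coiled-coil gene Ccdc141 moved the sum most, upward, and without it the sum of the bin fell by 0.84 rather than by 0.47. Ccdc141 rose by 1.65, and lost its call without sgNT replicate 2 (edgeR adjusted p = 0.101) or any 1 of the sgUhrf1 tumours (adjusted p = 0.0589 to 0.0701) or both muscle-rich tumours (0.148). In bin 7 Mal made the difference between a sum higher by 0.07 and one lower by 0.07. Helz2 in bin 10, a helicase gene induced by interferon, turned a sum lower by 0.14 into one higher by 0.14. In bins 2, 6 and 8, leaving out Sptan1 (an alpha-spectrin), Chp1 (a calcium-binding protein) and Fkbp1a (a prolyl isomerase) moved the log2 ratio of sums from -0.41 to -0.32, from -0.19 to -0.04 and from -0.29 to -0.31. Fmnl2 moved the sum of bin 3 from -0.34 to -0.01, and Ywhab that of bin 9 from 0.19 to 0.09.

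**Figure D4:**
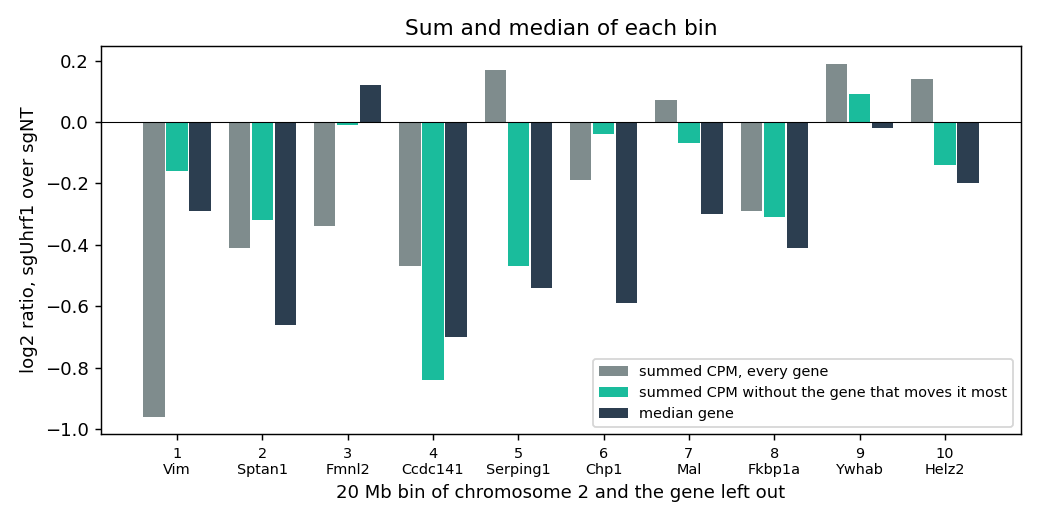
For each 20 Mb bin of chromosome 2, bars give the log2 ratio of summed CPM (sgUhrf1 over sgNT group means), the same without the gene that moves the sum most (named under the bin), and the median log2 fold change of single genes. Leaving out Vim moves the sum of bin 1 from -0.96 to -0.16, and leaving out Serping1 moves that of bin 5 from 0.17 to -0.47, while the medians use every gene once.

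Most of the largest rises were of genes with few or no counts in sgNT tumours. Serping1, described above, was an exception with 279 to 368 counts per sgNT tumour. Olfr1189 had 0, 0 and 0 counts in sgNT and 39, 80 and 133 counts in sgUhrf1 replicates 1 to 3, at least 95.2-fold higher when 3 counts are allowed over the sgNT group. Bpifb1 had 1, 0 and 0 counts and then 51, 92 and 46, a 214-fold ratio with a counting interval of 38.0 to 8510 (exact 95% binomial). Mal held 11, 39 and 7 counts in sgNT and 120, 1067 and 1053 in sgUhrf1 replicates 1 to 3. Its log2 fold change was 5.55 ± 0.90 (SE, edgeR adjusted p = 0.00175), and sgUhrf1 replicate 1 lay far below the other 2 sgUhrf1 tumours. Il1rn, the interleukin-1 receptor antagonist, held 11, 11 and 2 counts against 166, 250 and 214, with a log2 fold change of 4.91 ± 0.46 (edgeR adjusted p = 0.000176). Ehf, an epithelial ETS transcription factor, held 18, 15 and 2 counts against 206, 352 and 242 and rose by 4.70. Hdc, which makes histamine, rose by 4.02, Ggt7 by 3.75, Pak6 (a kinase) by 2.87 and Noxa1 (an activator of NADPH oxidase) by 2.84. The rule that named these 10 genes, Serping1 included, required groups that do not overlap. Olfr1189, Bpifb1, Ggt7, Pak6 and Noxa1 passed the low count filter through sgUhrf1 tumours alone, so that they had to differ. The Pak6 call was lost without both muscle-rich tumours (2.32, edgeR adjusted p = 0.0708).

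Outside these 10, the largest rises of their bins were of Rsu1 (2.15) in bin 1, Ccdc141 in bin 4, Tshz2 (2.81) in bin 9 and Helz2 (1.08) in bin 10. Rsu1 is a Ras suppressor found at focal adhesions, and Tshz2 is a zinc-finger transcription factor. Helz2 held 558, 700 and 811 counts in sgNT and 1223, 1407 and 1238 in sgUhrf1 replicates 1 to 3, without overlap (1.08 ± 0.22 SE, edgeR adjusted p = 0.00452).

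The largest fall was of Ckap5. It held 39, 87 and 40 counts in sgNT replicates 1 to 3 and 5, 5 and 3 in sgUhrf1 replicates 1 to 3, on a row that covers 60 bp of exon. Its log2 fold change was -3.44 ± 0.50 (SE, edgeR adjusted p = 0.00114). Nacc2 held 44, 92 and 66 counts against 7, 2 and 8, with a log2 fold change of -3.31 ± 0.58 (edgeR adjusted p = 0.00255). Both genes, and Dennd1a, passed the low count filter through sgNT tumours alone, so that they had to differ. Rapgef1, an exchange factor for Rap1, held 343, 634 and 548 counts against 78, 73 and 69, and Xrn2, a nuclear exonuclease that helps end transcription, 318, 506 and 391 against 80, 68 and 28. They fell by 2.60 and 2.63. Anapc1, a scaffold subunit of the anaphase-promoting complex, fell by 2.65, Top1 (topoisomerase I) by 2.48, Mvb12b by 2.90 and Itga6 (a laminin receptor subunit) by 2.78. Dennd1a, a Rab35 exchange factor, fell by 2.89, a call lost without sgNT replicate 2 (-2.75, edgeR adjusted p = 0.0530). Tyro3, a receptor kinase of the TAM family, fell by 2.80, a call lost without both muscle-rich tumours (-3.12, edgeR adjusted p = 0.0642). Usp6nl (-2.13) in bin 1, Fmnl2 (-1.73) in bin 3 and Zgpat (-0.75) in bin 10 had the largest fall of their bins, and the call of Zgpat was lost without sgNT replicate 2 (edgeR adjusted p = 0.0799), sgNT replicate 3 (0.113), sgUhrf1 replicate 2 (0.0573), sgUhrf1 replicate 3 (0.0621) or both muscle-rich tumours (0.0882), and with the replicate number as a block (0.0595).

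Gene lists by function, written with earlier results of these tumours known, held only some of the genes that rose or fell. Their counts are read against the 13.1% higher and 30.4% lower over all tested chromosome 2 genes. Of 12 tested genes of the immune list, 4 rose and 1 fell, with a median of 0.49 beside -0.33 for all chromosome 2 genes. Il1rn, Nfatc2 (a transcription factor of activated T cells, 2.77), Il15ra (which presents interleukin-15, 1.88) and Helz2 rose, the call of Il15ra being lost without both muscle-rich tumours (1.32, edgeR adjusted p = 0.120), and Mertk, a receptor by which macrophages take up dead cells, fell by 1.64. The row of Mertk covers 54 bp, and its call was lost without any 1 sgNT tumour (edgeR adjusted p = 0.0780 to 0.131), without sgUhrf1 replicate 1 (0.0629) or both muscle-rich tumours (0.118), and by median-of-ratios scaling (0.0502). Siglec1, a gene of macrophages, was at 0.45 ± 0.66 (SE) and did not pass the test. Leukocyte marker sums, given above, were higher in all 3 sgUhrf1 tumours, and their part in these values was not tested.

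Of 9 tested epithelial genes, 4 rose, 1 fell and the median was 1.01. Ehf, Bpifb1, Pax6 (2.76, a transcription factor of eye and endocrine pancreas) and Ptges (1.48, prostaglandin E synthase) rose, and Gatm, which makes the precursor of creatine, fell by 1.06. Among them, Bpifb1 passed the low count filter through sgUhrf1 tumours alone, so that it had to differ. Duox2, an oxidase of airway and thyroid epithelium that was not tested, had 0 counts in all sgNT tumours and 5, 67 and 12 counts in sgUhrf1 replicates 1 to 3. Epithelial marker sums were higher in all 3 sgUhrf1 tumours, and their part was not tested. Of 14 tested matrix, adhesion and mesenchymal genes, 2 rose and 4 fell, with a median of -0.16, shares close to those of all chromosome 2 genes. Serping1 and the hyaluronan receptor Cd44 (1.77) rose, and Vim, Itga6, Itgav (-1.08), a subunit of receptors for vitronectin and fibronectin, and the syndecan Sdc4 (-0.56) fell. Notch1 (-0.12), Gsn (-0.12) and Snai1 (-0.30) did not pass the test.

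Of 13 tested replication and division genes, none rose and 3 fell (Ckap5, Top1 and Set), with a median of -0.52, so no larger share fell than the 30.4% of all chromosome 2 genes. Ckap5 passed the low count filter through sgNT tumours alone, so that it had to differ. Set, a histone chaperone, fell by 0.51, a call lost with the replicate number as a block and without sgNT replicate 2 or 3 or sgUhrf1 replicate 1 or 2 (edgeR adjusted p = 0.0667 to 0.162) or both muscle-rich tumours (0.164). Bub1b (-0.27 ± 0.21 SE), a spindle checkpoint kinase, did not pass the test. Of 9 chromatin and imprinted genes, none rose and 3 fell, namely Phf20 (-2.09), a reader in a histone acetyltransferase complex, Top1 and Ncoa6, with a median of -0.76. The call of Ncoa6 was lost without sgNT replicate 2 or 3 or sgUhrf1 replicate 1 or 3 (edgeR adjusted p = 0.0657 to 0.131) or both muscle-rich tumours (0.239). Ehmt1 (-0.97), a histone H3 lysine methyltransferase, and the Polycomb gene Bmi1 (-0.30) did not pass. In the neuronal list, the neurotrophin gene Bdnf fell by 1.52. Lnpk (-0.85), beside the Hoxd cluster, and Lrp4 (-0.95), of the neuromuscular junction, were the only tested genes of their lists and did not pass. Mylk2, a muscle kinase that was not tested, had 2, 59 and 3 counts in sgNT and 45, 9 and 8 in sgUhrf1 tumours, high in the same 2 tumours as the muscle markers.

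Median fold changes were lower at greater exon length on chromosome 2 and on the other chromosomes, and chromosome 2 was lower in each class of length. In 5 classes of exon length, cut over all genes of the rule, the median of chromosome 2 genes was 0.26, -0.10, -0.36, -0.67 and -0.76 from the shortest to the longest class. Genes of other chromosomes had 0.50, 0.14, -0.08, -0.17 and -0.42, so the difference was between -0.24 and -0.50. The median exon length was 5500 bp on chromosome 2 and 5220 bp elsewhere. Split at 5248 bp, short chromosome 2 genes had a median of 0.00 (146 genes) and long ones -0.67 (167 genes), against 0.24 and -0.25 elsewhere. Among the 7 lower bins, short genes had positive medians in bins 5 (1.05, 9 genes), 7 (0.35, 16 genes) and 8 (0.16, 24 genes), where long genes stood at -1.02, -0.52 and -0.94. Bin 4 went the other way, with -1.32 for 3 short genes and -0.68 for 16 long ones. In bin 2 both were negative, -0.26 and -0.94. The part of RNA quality in the relation with length was not tested.

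**Figure D5:**
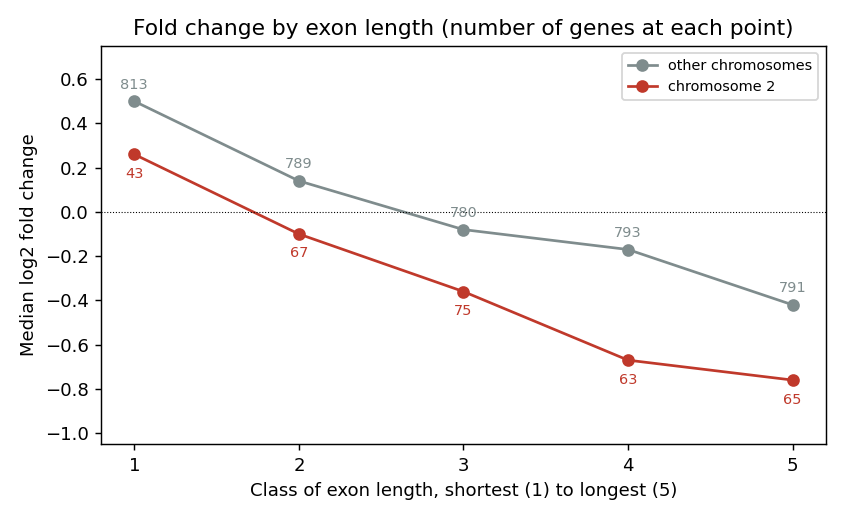
Median log2 fold change of sgUhrf1 over sgNT tumours in 5 classes of gene exon length, shortest to longest, for chromosome 2 and for all other chromosomes; the number of genes is printed at each point. Both lines fall with length, and chromosome 2 lies below the other chromosomes in all 5 classes, with differences between -0.24 and -0.50.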

How the data were processed

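The authors deposited 1 table of counts per tumour (whole numbers of read pairs per feature, not normalized) for 3 sgNT and 3 sgUhrf1 tumours. The submitters' processing notes name fastp, STAR, featureCounts and the build GRCm38. Per the file headers, featureCounts 2.0.1 used GENCODE M26, which has coordinates of another build, with no strand setting. Row names are therefore mostly not those of the genes counted, and each row was renamed by its overlap with GENCODE M21 exons: 932 of 3598 chromosome 2 rows cover at least 50 bp of exon of 1 gene, 350 cover several genes and 2228 cover none. The row with most counts stood for its gene. Of the 318 genes, 34 kept the name of their row, 74 had more than 1 row, and the row used covered a median of 319.5 bp of exon (54 to 5027 bp, under 100 bp in 29 genes), so a count is not the gene's full level. The rows used hold 41.0% of the chromosome's counts, and reads of introns, antisense genes or close copies inside them are not separated.

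All rows entered 1 fit in edgeR 4.0.16 (R 4.3.3, quasi-likelihood test, TMM scaling). filterByExpr at its defaults, a count of 10 and a total of 15, kept 10503 rows, over which p-values were adjusted by Benjamini-Hochberg, with a threshold of 0.05. Standard errors come from the same fit. Deviations used log2 CPM with a prior count of 2. The fit was also run on simulated counts, which checks the code and not the calls in these tumours. Labels call the tumours biological replicates. Bins of 20 Mb were described by medians and counts with no test, a gene being placed by the midpoint of the exon bases covered. The chromosome, the members and the gene lists were chosen with earlier results of these data known. Genes were named by rule: per bin the largest rise and fall among called genes whose groups did not overlap and whose mean log2 CPM was 1 or more (130 genes, without predicted genes and pseudogenes), the 10 largest each way, up to 4 members per list past the threshold, the gene that moves each bin's sum most, and runs of at least 4 neighbours. The results for some genes are not reported here. Other genes given beside these were chosen after their values were seen. Alternatives were other scaling, DESeq2 1.42.0, limma-voom (limma 3.58.1), other filters, rows and bins, a replicate block, and leaving out tumours. Promoters came from the RefSeq table of GRCm38.p6.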

Additional observations from a re-analysis of the deposited data

How the results depend on the processing

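Under every one of the 21 alternatives that gives it, the median of chromosome 2 genes minus that of other chromosomes was between -0.46 and -0.30. In all 18 that give shares of calls, the share of genes lower was greater, and the share higher smaller, on chromosome 2. The counts higher and lower went from 41 and 95 of 313 genes to 84 and 148 of 562 with shared rows. They were 19 and 41 of 313 without both muscle-rich tumours, and 62 of 218 were lower with at least 200 bp of exon. As shares, 30.4% were lower in the main fit, 26.3% with shared rows, 13.1% without both muscle-rich tumours and 28.4% at 200 bp. On other chromosomes the shares lower were 21.3%, 18.8%, 8.19% and 21.2% in the same order. Leaving out each tumour gave 26 to 41 higher and 61 to 91 lower (19.3% to 28.9%), against 13% to 19.2% lower on other chromosomes. The chromosome median of -0.33 became -0.38 with no low count filter, -0.40 with a minimum count of 30, -0.26 at 200 bp, -0.46 with every member row, -0.22 with shared rows, -0.37 with the left-out genes put back, -0.46 with at least 300 counts and -0.19 as a mean. It was -0.43 to -0.34 when each tumour was left out. Its difference from other chromosomes, -0.35, became -0.43 with a minimum count of 30, -0.30 with shared rows, -0.39 with genes put back and -0.46 with 300 counts (-0.46 to -0.33 leaving out each tumour).

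Bin medians moved more. With 200 bp of exon, bins 2, 5, 7, 8, 9 and 10 were at -0.47, -0.03, 0.11, -0.55, 0.28 and -0.07, so bins 7 and 9 changed sign. With shared rows, bins 2, 4, 5, 6, 8 and 10 were at -0.18, -0.40, -0.35, -0.34, -0.12 and 0.19, so bin 10 changed sign. As means in place of medians, bins 2 and 5 to 10 were at -0.41, 0.15, -0.22, -0.04, -0.21, 0.11 and 0.08, and 6 of 9 bins were below 0. With at least 300 counts, bins 2, 3, 4 and 9 were at -0.75, -0.99, -0.89 and -0.15, and with a minimum count of 30 bins 3 and 4 at -0.95 and -0.83. Without both muscle-rich tumours, bins 4, 5, 6 and 9 were at -0.88, -0.74, -0.40 and -0.20. Bin 4 was at -0.84 by limma-voom, bin 6 at -0.66 with no low count filter, bin 5 at -0.81 with every member row and -0.31 with genes put back, and bin 3 at -0.28 with genes put back. Leaving out each tumour gave -0.77 to -0.47 in bin 2, -0.30 to 0.33 in bin 3, -0.85 to -0.66 in bin 4, -0.71 to -0.35 in bin 5, -0.66 to -0.49 in bin 6, -0.43 to -0.25 in bin 7, -0.48 to -0.31 in bin 8, -0.21 to 0.10 in bin 9 and -0.33 to -0.05 in bin 10. The lowest bin was -0.87 in 10 Mb bins and -0.85 in bins shifted by 10 Mb. The highest was 0.12 in 10 Mb bins and 0.15 by means. Without the 3 genes that move the sum most, the summed CPM of bins 1, 4, 5, 6, 7 and 10 was at 0.05, -0.54, -0.13, -0.19, -0.23 and 0.09. The cause of these moves was not tested.

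Replicate numbers did not pair the tumours: the correlations of same-numbered deviations were -0.0795, -0.0209 and 0.05. With a replicate block, 11.5% of chromosome 2 genes were higher and 27.5% lower, and bin 4 was at -0.85. Of 45 named genes, 32 kept their call under every alternative that gave a value, 12 lost it at least once and none reversed, and Fkbp1a gained one without sgUhrf1 replicate 3 (-0.54, edgeR adjusted p = 0.0320). At 3 tumours per group and these counts, genes near 60 counts have wide intervals, and a fold of a gene on a short row rests on few reads.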

Other observations

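One row of chromosome 2 that covers no M21 exon took 73.4% of the counts of all such rows on the chromosome; it was singled out after its values were seen. It lies at chr2:75638702-75639158 (GRCm38), between Gm13655, 5.32 kb away, and Hnrnpa3, 20.1 kb away, and is listed in the files as Gm13669. It held 16136, 22767 and 18495 counts in sgNT replicates 1 to 3 and 3443, 4853 and 2332 in sgUhrf1 replicates 1 to 3. The log2 fold change was -2.28 ± 0.23 (SE, edgeR adjusted p = 0.000242), and no sgUhrf1 tumour reached any sgNT tumour. Without it, rows over no exon made up 0.062% ± 0.014 of counts in sgNT and 0.0791% ± 0.0126 in sgUhrf1 tumours (SD, n = 3), with overlapping groups.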
